A study of Mus musculus with 6 samples.

Results

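The enzymes and the transporter of arginine, creatine and polyamine metabolism described here are 9 genes, of 12666 listed in the tested table, measured in kidney of wild-type (WT) mice, labelled 2M (2 libraries) and 24M (4 libraries). They were taken from a fixed list of symbols, namely Ass1, Asl, Arg2, Agmat, Oat, Gatm, Slc6a8, Odc1 and Sat1, and all 9 are listed in both deposited tables. The study compared naturally aged with young kidney. Total RNA of kidney was sequenced. No source used here gives the strain, the sex, the animals per library or the part of the kidney taken. Whether each library is a different animal is not said, and p-values then cover the spread between these samples alone, which may be technical. Values are FPKM, fragments scaled by gene length and by the mapped fragments of the library, so levels of different genes are compared per length.

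The kidney is a main source of circulating arginine. Proximal tubule cells take up citrulline, join it to aspartate with argininosuccinate synthase (Ass1), and split the product to arginine with argininosuccinate lyase (Asl). Arginine can then be cut to ornithine and urea by the mitochondrial arginase (Arg2), or give its amidino group to glycine through Gatm, the first step of creatine synthesis. Ornithine is turned towards glutamate and proline by ornithine aminotransferase (Oat), or decarboxylated by Odc1 to putrescine, the first committed step of polyamine synthesis. Sat1 acetylates spermidine and spermine, which marks them for breakdown or export, and so works opposite to Odc1.

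The sequences upstream of Odc1 and Sat1 are shown because these enzymes work at the opposite ends of polyamine turnover and Odc1 showed the largest difference between ages among the members tested. Each is the RefSeq window (GRCm38.p6) up to the first annotated base of the gene, 5′ to 3′ on the gene's strand. The Odc1 window lies at chr12:17544623-17544793 (plus strand, 171 bases) and the Sat1 window at chrX:155216450-155216699 (minus strand, 250 bases). Capitals mark matches to the motifs searched on both strands.
Odc1: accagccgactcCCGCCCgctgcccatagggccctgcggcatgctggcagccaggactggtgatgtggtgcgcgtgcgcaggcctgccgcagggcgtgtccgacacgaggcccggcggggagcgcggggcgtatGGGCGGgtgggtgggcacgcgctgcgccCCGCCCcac
Sat1: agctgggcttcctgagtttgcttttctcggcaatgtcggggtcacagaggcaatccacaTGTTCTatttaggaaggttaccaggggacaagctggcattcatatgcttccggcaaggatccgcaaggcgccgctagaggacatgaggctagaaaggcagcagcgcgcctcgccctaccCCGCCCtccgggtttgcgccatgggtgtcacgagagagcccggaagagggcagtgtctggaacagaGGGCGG

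The motifs searched were the GC box GGGCGG, which Sp1 family factors bind, the E box CACGTG, the TATA box TATAAA, the cyclic AMP response half-site TGACG and the steroid receptor half-site TGTTCT. None of these overlaps another in either window. The Odc1 window holds 3 GC boxes, against at least 1 in 19.6% of the 32851 upstream windows of the same length. Sat1 has 2 GC boxes, against at least 1 in 32.7% of windows of its length, and 1 steroid receptor half-site, against at least 1 in 16.1%. The other letters searched are not in these 2 windows. A match describes the sequence and is not a bound site. RefSeq windows matched 6 of the 9 genes, with Asl, Arg2 and Slc6a8 unmatched.

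The table that holds 2M_1, 2M_2, 24M_1 and 24M_2 was used for testing, and the other 24M libraries come from a table that was made separately. The 2M libraries are called the young pair, 24M_1 and 24M_2 the first aged pair, and the libraries of the separate table (24M_3, 24M_4) the second aged pair. FPKM sums were 286198 to 295286 per library in the first table and 302628 and 335723 in the other, and the depth in reads is unknown. Over the 12546 shared genes, Pearson's r of log2(FPKM + 1) was 0.978 to 0.990 among libraries of the first table and 0.894 to 0.939 between tables, a description across genes that are not replicates. Kidney identity was checked with Umod, the loop of Henle protein uromodulin, at 445 to 612 FPKM, and Slc34a1, the proximal phosphate transporter, at 346 to 813. Library 24M_3 stood apart in immune genes. The summed FPKM of 9 macrophage markers was 172 and 206 in the young pair, 252 and 159 in the first aged pair, 2229 in 24M_3 and 317 in 24M_4. Cd74, 1 of the 9, made up much of each sum. It had 115 and 141 FPKM in the young pair and 177 and 82.8 in the first aged pair. In 24M_3 it stood at 1365 FPKM and in 24M_4 at 193.

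None of the 8 members tested passed the threshold of an adjusted p of 0.05, by limma over 11437 genes. Over all genes tested, 1.57% passed (180 genes), 0.761% higher and 0.813% lower in 24M. At an unadjusted p below 0.05 there was 1 member, Odc1, against 16.9% of all genes. Agmat, at under 1 FPKM in all 4 libraries of the tested table, was left out by the filter on low values. The median log2 change (24M minus 2M) of the 8 tested members was -0.029, beside -0.024 over all genes tested. In the first aged pair, 3 of the 8 tested members (Odc1, Oat and Arg2) lay below both 2M libraries, against 29.6% of genes tested, and 0 lay above both, against 20.8%. In bulk kidney, fewer cells of a type and less RNA per cell cannot be told apart.

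**Figure D1:**
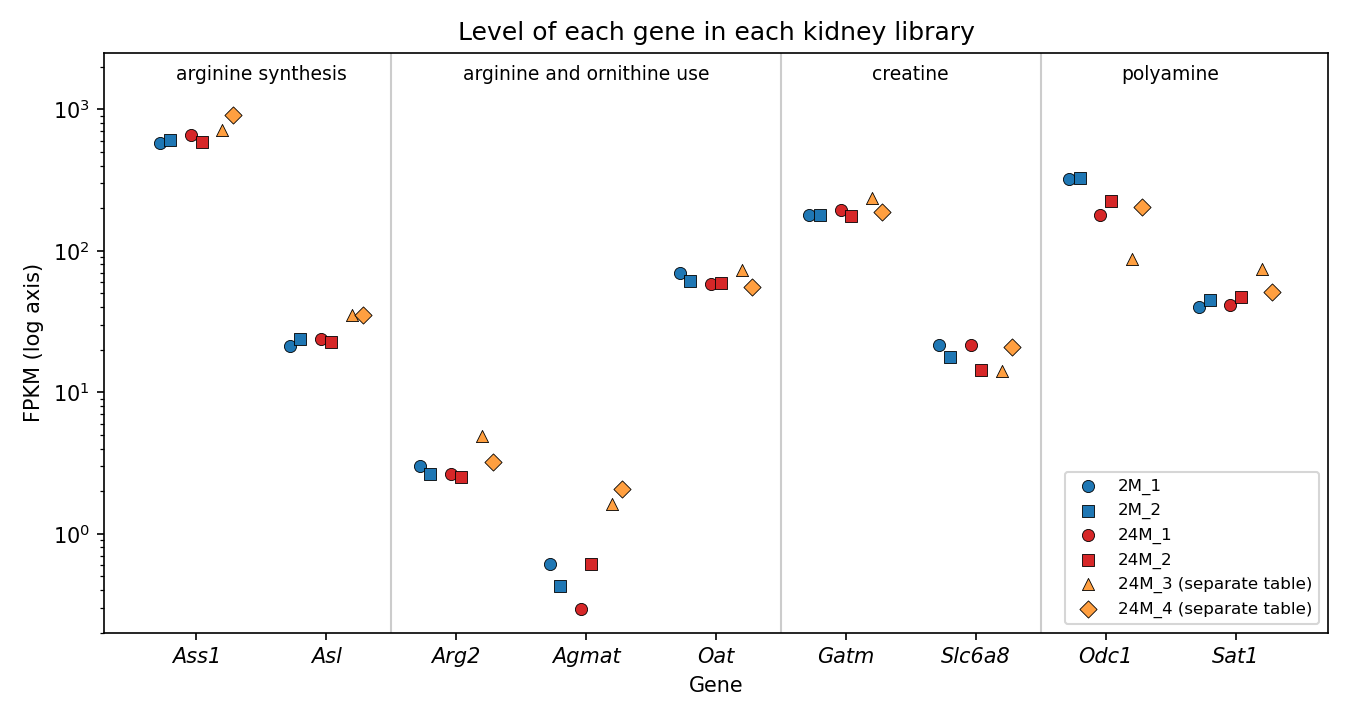
FPKM on a log axis of the 9 genes, grouped by role, with 1 point per library (blue 2M, red 24M_1 and 24M_2, orange 24M_3 and 24M_4 of the separate table). Ass1 was highest in every library and Agmat lowest, and the Odc1 points of all 4 24M libraries lie below both 2M points.

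The levels spanned 3 orders of magnitude on the plot of all members by library. In 2M the mean FPKM ran in the order Ass1 (590), Odc1 (325), Gatm (180), Oat (65.4), Sat1 (42.6), Asl (22.6), Slc6a8 (19.8), Arg2 (2.84) and Agmat (0.517). Neighbours in this order did not overlap between their 2 libraries except Asl and Slc6a8. In 24M_1 and 24M_2 the order of means was the same, but the ranges of Odc1 (178 to 223) and Gatm (177 to 196) overlapped. Ass1 ranked 31 of the 12666 genes at both ages, while Odc1 ranked 82 in 2M and 171 in 24M_1 and 24M_2.

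Arginine synthesis was represented by Ass1 and Asl, whose levels overlapped between the ages in the tested table. Ass1 (ENSMUSG00000076441.9, chromosome 2, 31470207 to 31520672, plus strand) stood at 578 and 603 FPKM in the young pair and at 655 and 590 in the first aged pair. Its library 24M_2 lay between the 2M libraries. The log2 change was 0.075 ± 0.072 (SE; 95% interval -0.10 to 0.25; limma adjusted p = 0.650). Asl (chromosome 5, 130011258 to 130029247, minus strand) had 21.4 and 23.9 FPKM in the young pair and 23.9 and 22.7 in the first aged pair. This gave a log2 change of 0.044 ± 0.083 (95% interval -0.16 to 0.25; limma adjusted p = 0.835). In the second aged pair both genes were above all 4 of these libraries, at 710 and 912 FPKM for Ass1 and 35.1 and 35.3 for Asl. The ratio of Asl to Ass1 within a library lay between 0.0366 and 0.0396 in 5 libraries and was 0.0493 in 24M_3.

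Enzymes that use arginine and ornithine were at very different levels, and none passed the test. Oat (chromosome 7, 132557478 to 132576398, minus strand) had 69.9 and 60.9 FPKM in the young pair and 57.8 and 58.7 in the first aged pair. Both of these 24M values were below both 2M values, by little against the spread of the 2M pair. Its log2 change was -0.16 ± 0.08 (95% interval -0.37 to 0.045; limma adjusted p = 0.397). The separate table had 72.6 FPKM in 24M_3, above both 2M libraries, and 55.4 in 24M_4, below both. A gene model of Fgfr2 spans Oat on the same strand, and how reads of overlapping genes were assigned is not stated.

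Arg2, the mitochondrial arginase (chromosome 12, 79130777 to 79156301, plus strand), was low, at 3.03 and 2.65 FPKM in the young pair and 2.65 and 2.50 in the first aged pair. The 24M_1 value lay just below the lower 2M value. A log2 change of -0.10 ± 0.11 was estimated (95% interval -0.37 to 0.17; limma adjusted p = 0.684). Arg2 was higher in the second aged pair, at 4.90 FPKM in 24M_3 and 3.23 in 24M_4. Its end overlaps Vti1b on the opposite strand, and whether counting used strand is not stated. Agmat (chromosome 4, 141746672 to 141759263, plus strand), an agmatinase-like member of the arginase family, had 0.609 and 0.425 FPKM in the young pair and 0.292 and 0.609 in the first aged pair. These values overlap, and no test was made. The separate table gave 1.61 and 2.08 FPKM, above all 4.

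Creatine genes gave no call either. Gatm (ENSMUSG00000027199.14, chromosome 2, 122594467 to 122611303, minus strand), the mitochondrial amidinotransferase that makes guanidinoacetate, had 180.4 and 179.9 FPKM in the young pair and 196 and 177 in the first aged pair. The 24M pair lay on both sides of the 2M pair. Its log2 change was 0.047 ± 0.069, with a 95% interval of -0.12 to 0.22 (limma adjusted p = 0.775). In the second aged pair Gatm had 236 FPKM in library 24M_3 and 189 in 24M_4. Slc6a8, the creatine transporter of the plasma membrane (chromosome X, 73673150 to 73682502, plus strand), had 21.7 and 17.9 FPKM in the young pair, 21.5 and 14.4 in the first aged pair, and 14.2 and 20.8 in the second aged pair. Libraries of the same age differed as much as libraries of different ages. Its interval was the widest of the 8, at -0.73 to 0.43 (log2 change -0.15 ± 0.21; limma adjusted p = 0.769).

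Odc1 (ENSMUSG00000011179.8, chromosome 12, 17544794 to 17551505, plus strand), ornithine decarboxylase, had the largest log2 difference between ages of the 8 tested members. It stood at 322 and 328 FPKM in the young pair, at 178 and 223 in the first aged pair, and at 87.7 (24M_3) and 205 (24M_4) in the second aged pair. All 4 24M libraries lay below both 2M libraries. This arrangement was found for 16.3% of the 12546 genes in both tables, and for 24M_1 and 24M_2 alone for 29.6% of the genes tested. Means were 325 ± 4.57 FPKM in the young pair and 201 ± 31.9 in the first aged pair (SD, n = 2 per age), a ratio of 0.618. On the log2 scale the change was -0.70 ± 0.11 (SE; 95% interval -0.99 to -0.41). The unadjusted limma p was 0.00131, at rank 250 of the genes tested. The limma adjusted p of 0.0600 did not pass. Without 24M_2, the higher of the 24M pair, it did, at a log2 change of -0.86 and an adjusted p of 0.0261, and over all alternatives the adjusted p ran from 0.0261 to 0.325. The gene model of the snoRNA Gm22748 lies inside Odc1 on the same strand (17546146 to 17546281) and is not among the listed genes of the tested table.

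**Figure D2:**
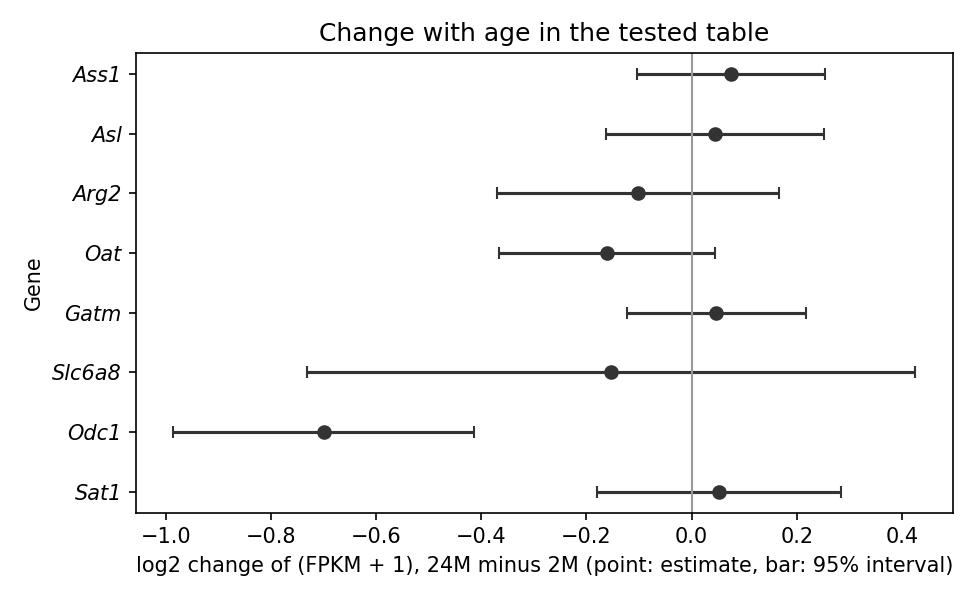
Log2 change of (FPKM + 1), 24M_1 and 24M_2 minus 2M_1 and 2M_2, for the 8 tested genes, with points for the limma estimates and bars for 95% intervals. The bar of Odc1, from -0.99 to -0.41, lies to the left of 0, and the other 7 bars span 0.

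Sat1, spermidine/spermine N1-acetyltransferase (ENSMUSG00000025283.15, chromosome X, 155213132 to 155216449, minus strand), had 40.3 and 44.9 FPKM in the young pair and 41.4 and 47.1 in the first aged pair. The ages overlapped. Its log2 change was 0.052 ± 0.093 (95% interval -0.18 to 0.28; limma adjusted p = 0.825). In the second aged pair Sat1 had 74.3 FPKM in library 24M_3 and 51.1 in 24M_4, above all libraries of the tested table.

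Ratios within a library do not depend on how the library was scaled. Sat1 over Odc1 was 0.125 and 0.137 in the young pair, 0.232 and 0.211 in the first aged pair, 0.847 in 24M_3 and 0.250 in 24M_4. Odc1 over Gatm was 1.78 and 1.82 in the young pair, 0.912 and 1.26 in the first aged pair, 0.371 in 24M_3 and 1.08 in 24M_4. For both ratios all 4 24M libraries lay outside the 2M range, with 24M_3 farthest from it. Gatm over Ass1, in which Odc1 has no part, was 0.312 and 0.298 in the young pair, 0.299 and 0.300 in the first aged pair, 0.333 in 24M_3 and 0.207 in 24M_4. It lay within the 2M range in the first aged pair and outside it in both libraries of the second. No test was made on the ratios, which are built from the values given above.

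**Figure D3:**
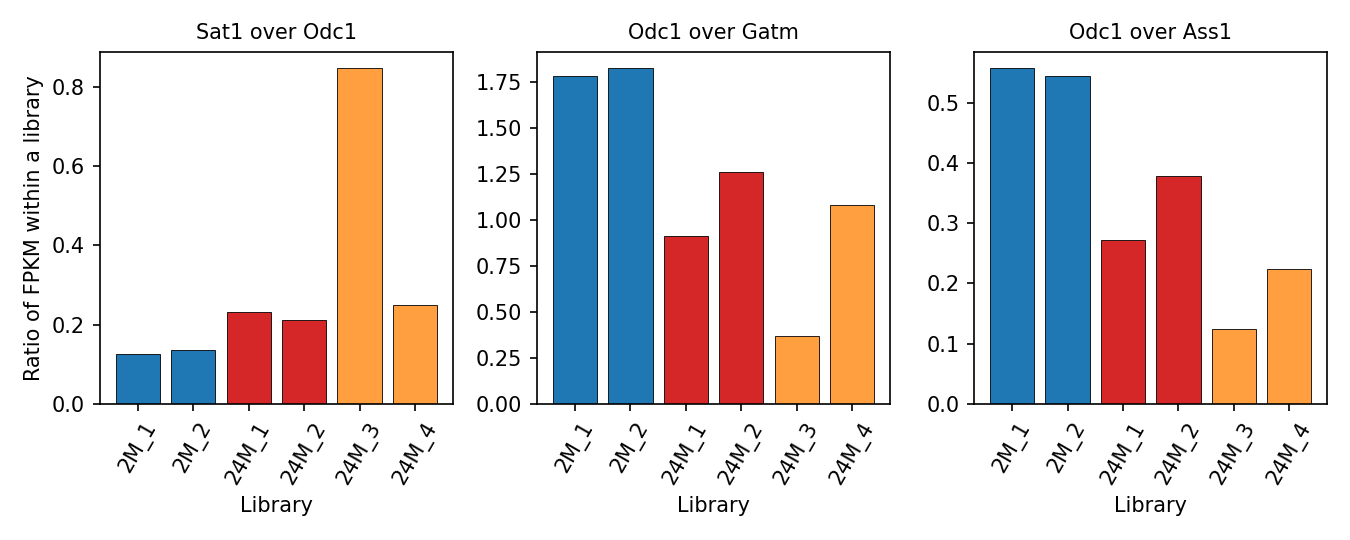
Ratios of FPKM within each library for Sat1 over Odc1, Odc1 over Gatm and Odc1 over Ass1, 1 bar per library (blue 2M, red 24M_1 and 24M_2, orange 24M_3 and 24M_4 of the separate table). Sat1 over Odc1 was 0.125 and 0.137 in 2M and at least 0.211 in the 24M libraries, and the ratios with Odc1 on top were lower in all 4 24M libraries than in both 2M libraries.

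Genes with a pattern most like Odc1 were ranked by Pearson's r of log2(FPKM + 1) over the 6 libraries, among 1951 genes averaging 5 FPKM or more and ranging over 1 or more. The first 3 were Fbxo25 (r = 0.994), an F-box protein gene, Amacr (0.987), the racemase of branched-chain fatty acid breakdown, and Lipo3 (0.985), a lipase family gene. Amacr stood at 135 and 137 FPKM in the young pair, 99.5 and 118 in the first aged pair, and 55.3 and 103 in the second aged pair. As for Odc1, the lowest value was that of 24M_3. These correlations describe 6 points from 2 tables and carry no p. Agmat also ranged over more than 1 on this scale, and the genes most like it were Tmem185a (0.995), Polr2k (0.993) and Rps15a (0.992), each highest in the second aged pair.

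In mouse kidney Odc1 is a known target of androgens, and several transporters and enzymes differ between the sexes. The labels give no sex. Slco1a1 and Cyp7b1, plotted with Odc1, were picked after their values were seen, and not all other genes of their lists followed it. Y-linked Ddx3y and Eif2s3y were above 12 FPKM in all 6 libraries. Of 9 genes known to be higher in male kidney, 1 passed the adjusted threshold, Slco1a1, an organic anion transporter, which was lower in 24M. The list includes the Y-linked Ddx3y, Eif2s3y, Uty and Kdm5d. Of the 9 log2 changes, 6 were positive, those of Ddx3y, Eif2s3y and Uty among them. At an unadjusted limma p below 0.05 there were 2 of the 9, Slco1a1 and Gusb, both with negative log2 changes. Slco1a1 had 94.9 and 118 FPKM in the young pair, 60.01 and 57.5 in the first aged pair (limma adjusted p = 0.0405), and 6.74 and 36.0 in the second aged pair. Kap, the androgen-regulated kidney protein, did not pass, at 8708 and 8536 FPKM in the young pair, 8508 and 9372 in the first aged pair, 6274 in 24M_3 and 17106 in 24M_4. The summed level of the 9 genes was 9132 and 9030 FPKM in the young pair, 8953 and 9822 in the first aged pair, and 6705 and 17844 in the second aged pair, and none of the 9 was at 0. Kap made up most of each sum, and the other 8 genes summed to 424 and 494 FPKM in the young pair, 445 and 450.1 in the first aged pair, and 430.4 and 737 in the second aged pair.

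Of 4 tested genes known to be higher in female kidney, Hao2, a hydroxy acid oxidase, and Slc7a12, an amino acid transporter, passed the adjusted threshold and were higher in 24M. Hao2 had 126 and 120 FPKM in the young pair, 302 and 265 in the first aged pair, and 376 and 309 in the second aged pair. Slc7a12 had 1.204 and 0.619 FPKM in the young pair and 7.24 and 6.62 in the first aged pair. The list summed to 134 and 132 FPKM in the young pair and 320 and 291 in the first aged pair, and to 476 and 333 in the second aged pair. The part of these genes' regulators in the Odc1 values was not tested.

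Most of these enzymes act in the proximal tubule, so markers of its segments were set beside them. Of 12 markers of the last segment (S3), none passed in either direction, with a median log2 change of -0.14. Of the 12, 5 had an unadjusted p below 0.05, 4 with negative and 1 with a positive log2 change. Only 3 of the 12 log2 changes were positive, beside 4999 of 11437 over all genes tested. Cyp7b1, the oxysterol hydroxylase of that list, had 104 and 94.0 FPKM in the young pair, 75.3 and 70.9 in the first aged pair, and 23.4 and 57.1 in the second aged pair. Slc7a13, an S3 amino acid transporter, had 422 and 440 FPKM in the young pair, 424 and 472 in the first aged pair, and 281 and 481 in the second aged pair. Summed over the list, S3 markers stood at 1675 and 1762 FPKM in the young pair, 1610 and 1612 in the first aged pair, and 1581 and 2331 in the second aged pair, with none at 0. Of 12 markers of the first segments, 1 passed the adjusted threshold, Slc22a8, which was higher in 24M. Of the 12, 3 had an unadjusted p below 0.05, all with positive log2 changes, and 9 log2 changes were positive, with sums of 1361 and 1476 FPKM in the young pair, 1580 and 1499 in the first aged pair, and 1722 and 1809 in the second aged pair. The part of segment makeup in the members' values was not tested.

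**Figure D4:**
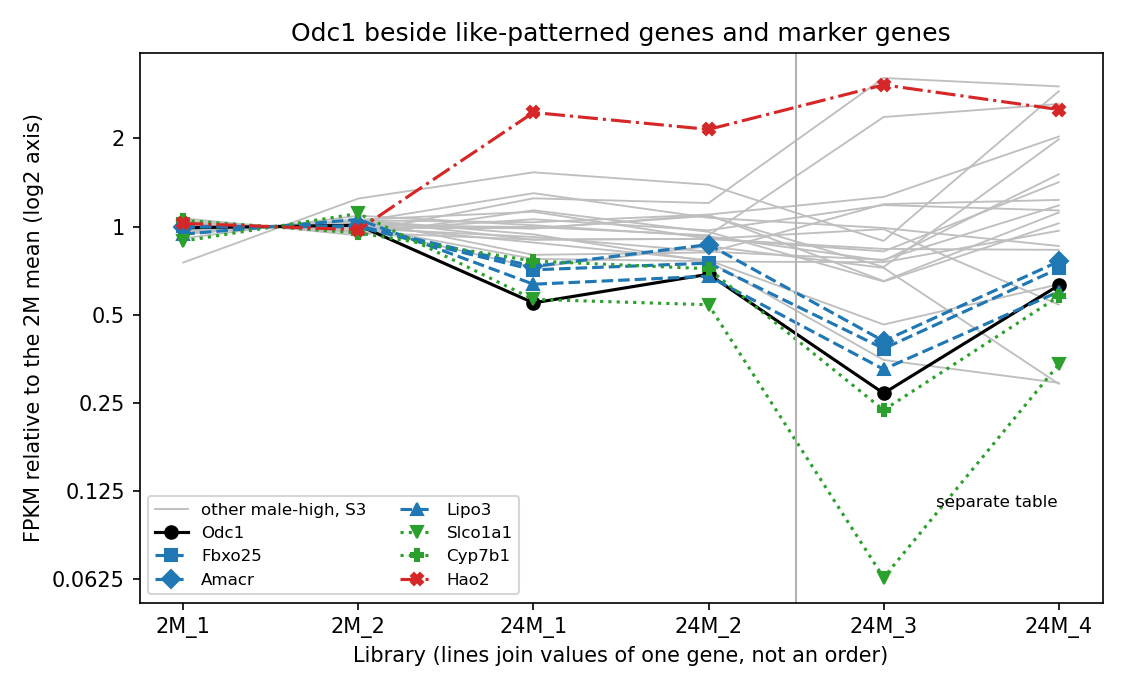
FPKM of each gene divided by its own 2M mean, on a log2 axis, in the 6 libraries, with lines that only join the values of 1 gene. Odc1 (black) and its 3 most like-patterned genes (blue) lie below 1 in the 4 24M libraries and lowest in 24M_3, as do Slco1a1 and Cyp7b1 (green), and Hao2 (red) lies above 1 in all 4. Grey lines are the other genes of the male-high and S3 lists, which lie on both sides of 1 in the 24M libraries.

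For the second aged pair, 6 of the 9 members (Ass1, Asl, Arg2, Agmat, Gatm and Sat1) had both 24M_3 and 24M_4 above both 2M libraries, and Odc1 had both below. Among the 12546 genes in both tables, 32.4% lay above and 38.5% below in this way. The second aged pair differs from 2M in both age and table, which cannot be told apart here. Ass1, Asl, Arg2, Agmat and Sat1, 5 of the 9, lay above all 4 libraries of the tested table, against 27.4% of genes. Arg2, Gatm, Sat1 and Oat were highest in 24M_3, the library with the high macrophage markers. There C1qa stood at 145 FPKM against 5.29 to 25.4 in the other libraries, and Lyz2 at 447 against 26.0 to 41.7. Of the 9 macrophage markers, 8 lay above both 2M libraries in the second aged pair, none was at 0 in any library, and their part in these levels was not tested.

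Markers of other cell types were also set beside the members. All 6 tested adipocyte markers had negative log2 changes and 5 of them passed the adjusted threshold, with Adipoq and Cfd listed at 0 in the first aged pair. The mean level of that list, on the log2(FPKM + 1) scale, covered 7 genes in the tested table. It was 2.13 and 2.33 in the young pair, and 0.665 and 0.662 in the first aged pair. In the second aged pair it was 0.853 and 1.78 over only 4 genes, without Ucp1, Retn and Plin1. These last means therefore cannot be set against those of the tested table. Of 12 tested immediate early genes, which respond quickly to stress or handling, 5 passed as higher in 24M and none as lower. Mean levels over 13 listed genes were 2.02 and 2.92 in the young pair, and 3.74 and 4.19 in the first aged pair. In the second aged pair they were 4.004 and 2.35 over 12 genes, without Fosb, so the sets of genes differ.

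Of 10 loop of Henle markers 2 passed, both lower in 24M (Slc14a2, a urea transporter, and Epcam), and 6 had an unadjusted p below 0.05, all with negative log2 changes. Of 14 distal and collecting duct markers the water channel Aqp4 passed as lower and the salt transporter Slc12a3 as higher. Only 1 of the 14 log2 changes was positive, beside 4999 of 11437 over all genes tested. Of the 14, 6 had an unadjusted p below 0.05, 5 negative and 1 positive. Among 8 endothelial markers the receptor Tek passed as lower, and 5 had an unadjusted p below 0.05, all with negative log2 changes. Red blood cell markers gave 1 call of 6, Hbb-bt, and 5 at an unadjusted p below 0.05, all with negative log2 changes. These 6 markers summed to 204 and 161 FPKM in the young pair and 28.8 and 53.5 in the first aged pair. In the second aged pair the sums were 206 and 173 FPKM, above those of the first aged pair. Jchain, the joining chain of secreted antibodies and the 1 gene of its lymphocyte list tested, was higher in 24M, at 0.757 and 1.17 FPKM in the young pair, 16.7 and 12.3 in the first aged pair, and 179 and 59.5 in the second. No fibroblast marker passed of 6 tested, with 1 positive and 3 negative log2 changes at an unadjusted p below 0.05. Of 7 tested urothelium markers none passed, though all log2 changes were negative and 2 had an unadjusted p below 0.05. The mean level of the 8 listed markers, on the log2(FPKM + 1) scale, was 2.30 and 2.13 in the young pair. It was 0.105 in 24M_1, 1.55 in 24M_2, and 0.156 and 0.139 in the second aged pair. The part of these genes and cell types in the members' values was not tested.

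Beyond the members, 76 genes in 5 lists of the same pathways were followed. Of these, 62 were listed in the tested table and 57 were tested, and none passed in either direction by limma. At an unadjusted p below 0.05 there were 14, 10 with a positive and 4 with a negative log2 change, or 24.6% against 16.9% of all genes, and the median log2 change of the 57 was 0.028.

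**Figure D5:**
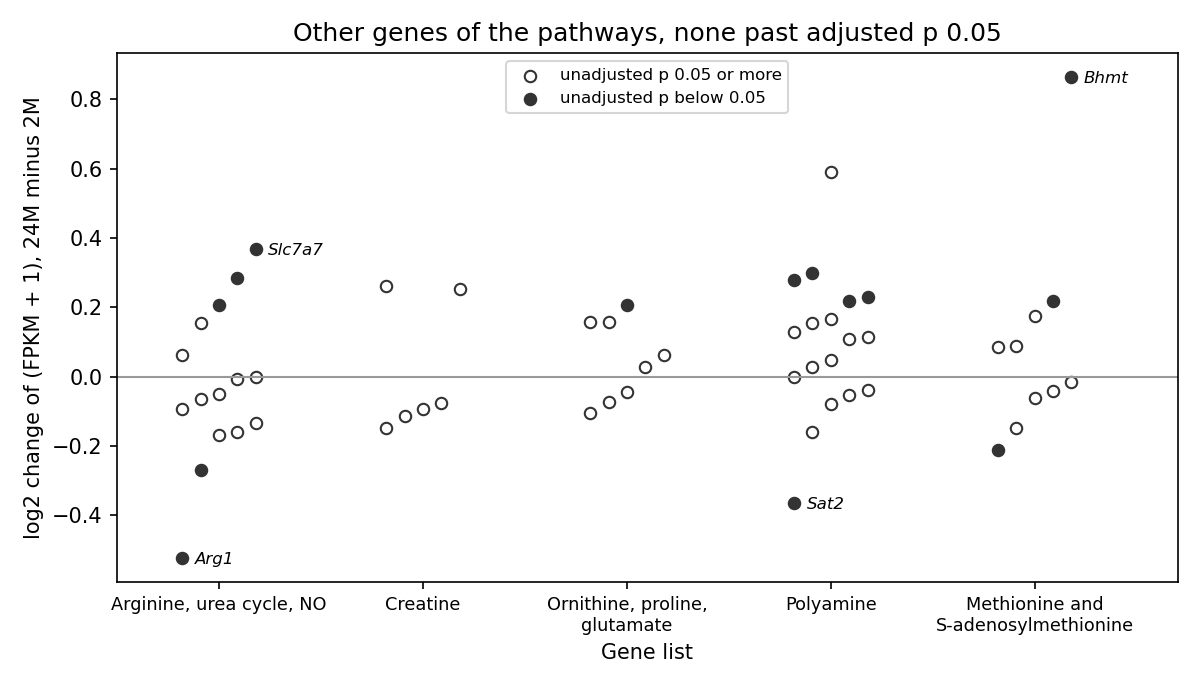
Log2 change of (FPKM + 1), 24M minus 2M, of the tested genes in 5 pathway lists, with 1 point per gene, filled where the unadjusted limma p was below 0.05. No gene passed an adjusted p of 0.05, and the filled points farthest from 0 are those of Bhmt at 0.86, Arg1 at -0.52, Slc7a7 at 0.37 and Sat2 at -0.37.

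Among 18 tested polyamine genes none passed, with 4 positive and 1 negative change at an unadjusted p below 0.05. Amd1, S-adenosylmethionine decarboxylase, which supplies the aminopropyl groups for spermidine and spermine, had 25.5 and 22.9 FPKM in the young pair and 29.7 and 29.4 in the first aged pair (limma adjusted p = 0.177). In the second aged pair it stood at 19.3 and 26.8 FPKM, and counts could be split between it and Amd2, a near-identical copy. Eif5a, the translation factor that carries the spermidine-derived amino acid hypusine, had 74.5 and 78.3 FPKM in the young pair, 87.4 and 90.6 in the first aged pair (limma adjusted p = 0.1799), and 108 and 139 in the second aged pair. Sat2, a relative of Sat1, had 12.4 and 12.2 FPKM in the young pair, 10.4 and 8.35 in the first aged pair (limma adjusted p = 0.213), and 8.63 and 9.81 in the second aged pair. All 4 24M libraries lay above both 2M libraries for Eif5a and below both for Sat2.

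Antizymes bind Odc1 protein and target it for degradation. Oaz1 had 8.29 and 10.9 FPKM in the young pair and 8.99 and 9.48 in the first aged pair. In the second aged pair Oaz1 stood at 19.8 and 23.4 FPKM, above all 4 libraries of the tested table. That arrangement was found for 27.4% of the genes in both tables. Oaz2, singled out after its values were seen, had 11.6 and 10.7 FPKM in the young pair, 9.71 in 24M_1 and 30.2 in 24M_2. In the second aged pair Oaz2 stood at 15.4 and 14.97 FPKM. Its call rested on 1 library, with a limma adjusted p of 0.673 with all 4 libraries and 0.0353 without 24M_1, where the lone 24M_2 was assumed to vary like the 2M pair.

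Among 15 tested genes of arginine transport, the urea cycle and nitric oxide none passed, with 3 positive and 2 negative changes at an unadjusted p below 0.05. Slc7a7, the basolateral exporter subunit for arginine and lysine, had 17.0 and 16.7 FPKM in the young pair, 22.3 and 21.8 in the first aged pair (limma adjusted p = 0.0762), and 66.7 and 36.5 in the second aged pair. All 4 24M libraries were above both 2M libraries. Slc25a15, the mitochondrial ornithine carrier, had 29.8 and 28.3 FPKM in the young pair, 35.0 and 36.2 in the first aged pair (limma adjusted p = 0.131), and 32.2 and 40.7 in the second aged pair, again without overlap between the ages. For genes of both tables, this arrangement above 2M was found for 9.96%. Arg1, the cytosolic arginase of liver, was near the filter at 1.31 and 1.14 FPKM in the young pair and 0.417 and 0.696 in the first aged pair (limma adjusted p = 0.165).

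Of 6 other creatine genes none passed, and none had an unadjusted p below 0.05. Gamt, which methylates guanidinoacetate to creatine, had 6.84 and 8.95 FPKM in the young pair, 9.96 and 9.12 in the first aged pair (limma adjusted p = 0.411), and 7.94 and 11.8 in the second aged pair. Slc16a12, a creatine transporter of the basolateral membrane, had 34.1 and 32.8 FPKM in the young pair and 30.83 and 30.82 in the first aged pair, with 33.3 and 33.5 in the second aged pair. Slc16a5, a monocarboxylate transporter, was at 0.798 and 1.26 FPKM in the young pair and 1.26 and 1.59 in the first aged pair.

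Ornithine, proline and glutamate genes (8 tested) also gave no call, with 1 positive change at an unadjusted p below 0.05. That was Prodh, proline dehydrogenase, at 80.7 and 88.2 FPKM in the young pair and 97.8 and 97.3 in the first aged pair (limma adjusted p = 0.225). It stood at 53.8 and 58.1 FPKM in the second aged pair, below both 2M libraries. Its relative Prodh2, which breaks down hydroxyproline, had 16.5 and 15.9 FPKM in the young pair, 18.9 and 17.5 in the first aged pair, and 28.7 and 24.6 in the second aged pair. Glul, glutamine synthetase, had 67.4 and 70.7 FPKM in the young pair, 84.9 and 69.9 in the first aged pair, and 173 and 150 in the second aged pair.

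Methionine and S-adenosylmethionine genes, which supply the methyl group for creatine, gave no call among 10 tested. Bhmt, betaine-homocysteine methyltransferase, had 1.38 and 0.587 FPKM in the young pair, 2.96 and 2.16 in the first aged pair (limma adjusted p = 0.175), and 1.45 and 1.15 in the second aged pair, where 24M_4 lay between the 2M values. Its relative Bhmt2 had 37.3 and 40.2 FPKM in the young pair and 46.9 and 43.5 in the first aged pair (limma adjusted p = 0.244), with 38.9 and 54.6 in the second aged pair. Mat2b, the regulatory subunit of methionine adenosyltransferase, had 15.9 and 16.0 FPKM in the young pair, 13.1 and 14.1 in the first aged pair (limma adjusted p = 0.264), and 16.8 and 16.2 in the second aged pair. Directions thus differed between the tables for Mat2b and Prodh. They also differed for the member Arg2, and for other genes of these lists such as Glud1 and Atp13a3. These genes are examples and not a full count.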

How the data were processed

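Kidney RNA-seq was analysed from 2 gene tables, one with 2M_1, 2M_2, 24M_1 and 24M_2 (12666 genes) and one with 24M_3 and 24M_4 (13606 genes). Both hold FPKM, which the authors computed and deposited, per the file headers. The submitters' processing notes name mm10, DESeq2 (1.20.0), HISAT2 (2.0.5) and featureCounts (1.5.0-p3), with no role or order. How the FPKM were made, and with which annotation, is not given in the sources used here. Whole-read steps could not be found among low values, so depth is unknown and counting intervals cannot be given. Groups and replicate numbers come from the sample titles.

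IDs were matched to symbols, and 18 and 27 IDs had none. Positions come from GENCODE on GRCm38, the assembly also called mm10, and upstream sequences from RefSeq on GRCm38.p6. Because the tables were made separately, age was tested in the first alone. The test covered 11437 genes that reached 1 FPKM in 2 or more of its 4 libraries. It was a two-sided limma fit (version 3.58.1, R 4.3.3) of log2(FPKM + 1) on age, with an intensity trend and robust variance, adjusted by Benjamini-Hochberg over all genes tested, with a threshold of 0.05. Log2 changes on this scale understate those of low genes. The fit was also run on simulated data with the same arrangement and with spreads taken from these 4 libraries. It recovered 77% of 100 genes changed by a log2 of 1 and 93% of 100 changed by 2. Of its calls, 6.59% were false. Changes as small as those of the members were not simulated, so recovery at their size is unknown.

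The members, the pathway lists and the marker lists were chosen with earlier results of these data known. Named genes are all members, up to 3 genes of each pathway list with the smallest p, genes of marker lists past the threshold with up to 2 defining markers, and for members that ranged over at least 1 on the log2 scale the 3 genes most correlated with each. Further genes of these lists, such as Oaz1, were named after their values were seen. Other pseudocounts, filters, scalings and variance settings, the replicate number as a term and the removal of each library were tried.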

Additional observations from a re-analysis of the deposited data

How the results depend on the processing

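Over all genes, 180 passed by limma, 108 with no intensity trend and no robust variance, 43 with the replicate block, and 0 to 126 with a library left out. There were 0 without 2M_1 and 0 without 2M_2, where the unadjusted p was below 0.05 for 1215 and for 1452 genes, and 92 without 24M_1. Each such fit has fewer samples and assumes that the lone library varies like the other age's pair. The counts differed with the age of the library left out. The count of members past the threshold was 0 to 1 with a library left out, and 0 under every other alternative. The same holds for the pathway lists, where the count was 0 to 1. The single calls were Odc1 without 24M_2 and Oaz2 without 24M_1. With a library left out, the log2 change of Odc1 ran from -0.86 to -0.54, that of Gatm from -0.025 to 0.12, of Ass1 from -0.00017 to 0.15, of Asl from -0.032 to 0.12, of Sat1 from -0.039 to 0.14 and of Slc6a8 from -0.42 to 0.12. These 5 members changed sign, Gatm and Ass1 without 24M_1, Asl without 2M_1, Sat1 without 2M_1 (-0.024) or 24M_2 (-0.039), and Slc6a8 without 24M_2. Of 103 values of the 8 tested members under alternatives, 96 kept direction and side of the threshold, 6 reversed and 1 passed. The deviations of same-numbered libraries from their age means correlated at -0.059 over genes. This value cannot show whether libraries with the same number were handled together, and the labels do not say. With the replicate block no member passed. The median log2 change of all genes was -0.024 as deposited and -0.029 with a common sum, and closer to 0 with median or quantile scaling.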

Other observations

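Nos2, the inducible nitric oxide synthase that competes with arginases for arginine, is listed only in the separate table, at 6.19 FPKM in 24M_3 and 0.133 in 24M_4. Nnmt, which uses S-adenosylmethionine to methylate nicotinamide, is also listed there alone, at 2.19 FPKM in 24M_3 and 0.688 in 24M_4. Among T cell markers listed only in that table, Cd3e stood at 1.97 and 0.220 FPKM and Cd8a at 2.72 and 0.505. These libraries thus differed from each other in the same direction for all 4 genes, and no test was made.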
